A study of Mus musculus with 12 samples.

Results

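Hepatic lipogenesis was examined through 10 genes that the transcription factors SREBP1 and ChREBP are known to control, in liver transcriptomes from mice that lack YAP1 in the liver. The genes were taken by name (*Srebf1*, *Fasn*, *Acaca*, *Acacb*, *Acly*, *Scd1*, *Elovl6*, *Me1*, *Thrsp* and *Pnpla3*) from tables of 41743 genes, and all 10 were found and all 10 passed the filter on low values in every comparison. The livers came from 12 females, 3 to 4 months old, in 4 groups of 3, and RNA of the whole organ was sequenced. YAP1 KO mice carried *Foxa3*-Cre, floxed *Yap1* on both alleles and a ROSA-stop-EYFP reporter on a C57BL/6 background, and were compared with their WT (C57BL/6) littermates. YKTH mice (YAP1 KO TAZ Heterozygote) lost *Yap1* through *Foxa3*-Cre too, but from a different floxed line, of FVB background. They also lost 1 copy of *Wwtr1*, which encodes TAZ. YKTH mice were compared with WT littermates of a mixed C57BL/6-FVB background, called WT (mixed) here. *Foxa3*-Cre acts in the foregut endoderm of the embryo, so cells of other origin in the liver keep *Yap1*, and organs outside the liver may lose it. Only female livers were sequenced, and YKTH males mostly die around birth. All mice had standard chow freely available under a light and dark cycle, and the hour of collection and any fast before it are not given in the sources used here.

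The liver makes fatty acids from glucose when food is plentiful. ATP citrate lyase (*Acly*) turns citrate into cytosolic acetyl-CoA, the acetyl-CoA carboxylases (*Acaca*, *Acacb*) make malonyl-CoA from it, and fatty acid synthase (*Fasn*) builds palmitate using NADPH, part of which comes from malic enzyme (*Me1*). ELOVL6 lengthens palmitate and SCD1 puts a double bond into the product. SREBP1, encoded by *Srebf1*, is a membrane-bound transcription factor that is released from the endoplasmic reticulum and driven by insulin and by the nuclear receptor LXR, whereas ChREBP, encoded by *Mlxipl*, responds to glucose metabolites. Insulin after feeding is known to raise these genes together in mouse liver.

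The measure was TPM, a transcript level scaled for gene length and for the library total, so TPM of different genes can be compared within a liver. For tests, TPM was divided by a trimmed-mean library factor, 1 was added and log2 was taken, and limma was fitted over all genes that reached 1 TPM in 3 or more of the libraries fitted. A gene is said to have risen or fallen where the Benjamini-Hochberg adjusted p over all tested genes was under 0.05, two-sided. Every fold change is on the log2(scaled TPM + 1) scale with its standard error (SE), and understates changes where TPM is low. The factors matter for direction: without them the median of all tested genes moved from -0.04 to 0.28 in YAP1 KO mice and from -0.04 to 0.24 in YKTH mice. The share of changed genes that were higher went from 51.3% to 84.0% in YAP1 KO and from 50.2% to 82.2% in YKTH mice. All changes are therefore relative to the bulk of the genes. With 3 mice a group an exact two-sided permutation test cannot give a p below 0.1. *Yap1* was at 28.2 to 30.5 TPM in WT (C57BL/6) livers and 1.67 to 3.72 TPM in YAP1 KO livers. It was at 31.0 to 33.2 TPM in WT (mixed) livers and 8.63 to 11.5 TPM in YKTH livers. The *Yap1* part of the label thus held in every knockout liver, with more *Yap1* left in YKTH than in YAP1 KO livers. *Wwtr1* was at 7.73 to 8.38 TPM in WT (mixed) and 11.5 to 14.1 TPM in YKTH livers. It was at 6.26 to 6.83 TPM in WT (C57BL/6) and 13.26 to 16.65 TPM in YAP1 KO livers, a range that overlaps that of YKTH livers. This gene-level value does not count intact copies, so the loss of 1 copy of *Wwtr1* could not be checked with it.

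1 WT (mixed) mouse, LM226, stood apart in these genes. It had the highest TPM as deposited of all 12 livers for 9 of the 10 genes, the exception being *Acaca*, and the highest scaled TPM for all 10. Its TPM exceeded the mean of the other 2 WT (mixed) livers by factors from 1.51 for *Me1* to 5.66 for *Pnpla3*. The same liver had the lowest level of *Igfbp1*, a secreted binding protein that insulin represses, at 16.7 TPM against 31.4 to 153 TPM in the other 5 WT livers. It also had the highest level of *Mlxipl* of the 12 livers, at 176 TPM. YKTH changes of the 10 genes are therefore given with and without it. The other mice were ordered less completely, although LM193 was by deposited TPM the highest of the WT (C57BL/6) livers for 8 of the 10 genes, LM189 the highest YAP1 KO liver for 6 and LM250 the highest YKTH liver for 5. The spread within a group was wide, and the highest WT (mixed) liver exceeded the lowest by 1.55 times for *Me1* and 6.62 times for *Pnpla3*, whereas in YKTH livers *Me1* differed by at most 1.01 times.

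**Figure D1:**
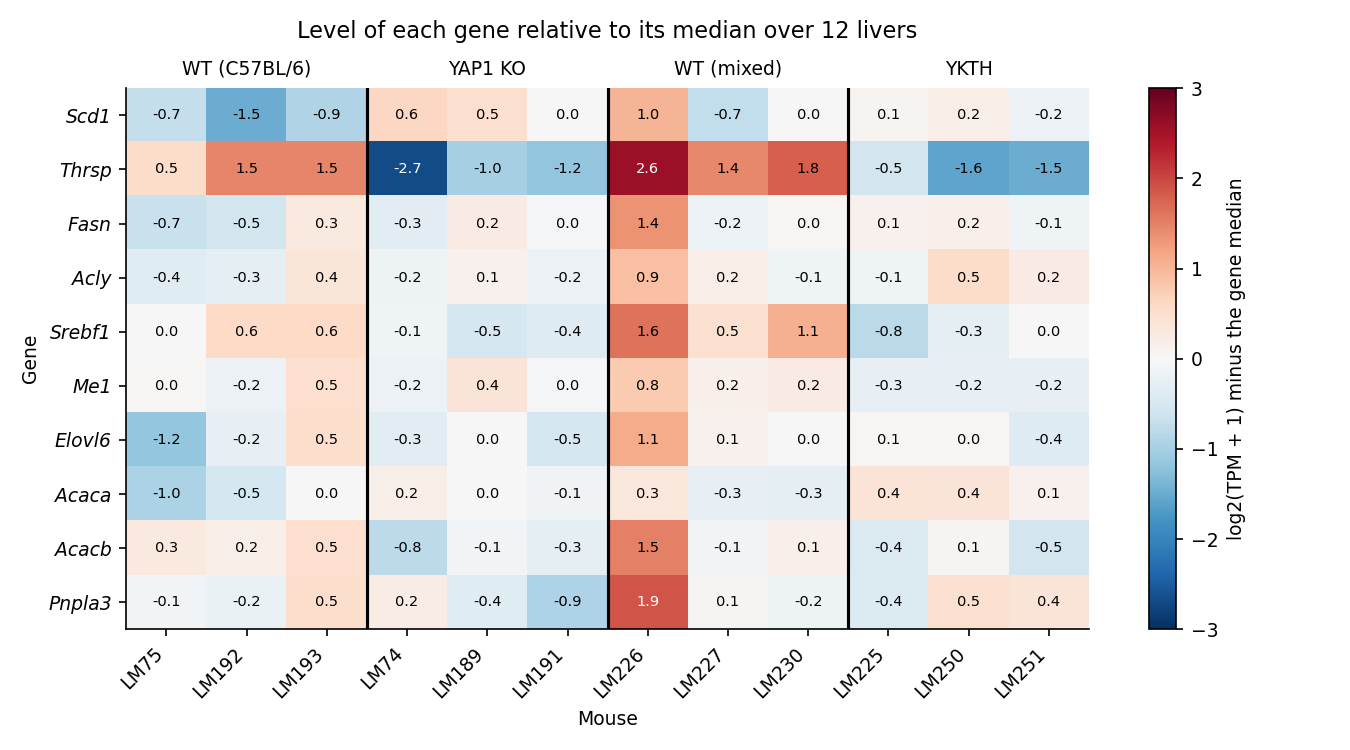
Heat map of each gene (rows, ordered by median TPM) in each of the 12 livers (columns, by group), coloured by log2(deposited TPM + 1) minus the median of that gene over the 12 livers, with the rounded value in each cell. The column of LM226 is positive for all 10 genes, and *Thrsp* is the row with the strongest contrast between WT and knockout livers.

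The genes lie on 7 chromosomes of GRCm38 and the tables give each 1 value for the whole gene, with no split by transcript or exon. *Srebf1* is on chromosome 11 from 60199089 to 60222581 on the minus strand, and *Thrsp* is on chromosome 7 from 97412938 to 97417730 on the minus strand. *Fasn* is on chromosome 11 from 120805846 to 120824547, *Acacb* on chromosome 5 from 114146535 to 114250761 and *Scd1* on chromosome 19 from 44394455 to 44407879. All 10 are annotated as protein-coding, and start and end were the same in GENCODE M21. Exons of *Rai1* lie on the opposite strand within the span of *Srebf1*. The strand setting of the libraries is not given in the sources used here, but *Rai1* reached at most 5.55 TPM where *Srebf1* was at 65.5 TPM or above. Other annotated genes have exons on the same strand within the spans of *Pnpla3*, *Acaca*, *Elovl6* and *Me1*. MicroRNA genes lie on the same strand within *Srebf1*, *Acly* and *Pnpla3*. The part of these overlaps in the values was not tested. Only the longest transcript of each protein-coding gene was searched, and pseudogenes were not. No such transcript of another gene matched any of the 10 at 90% identity across 30% or more of its length in 1 alignment. The nearest by identity was *Scd3*, which matched *Scd1* at 90.4% over 22.4% of its length.

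RefSeq promoter windows, from 250 bases before to 50 bases after a start site, were available for 9 of the 10 genes, as 12 windows in all. A sterol regulatory element written as TCACNCCAC and an E-box written as CACGTG, the core that ChREBP and USF proteins can recognize, were searched on both strands. Neither was in any of the 12 windows, while 1.24% and 7.15% of the 32851 windows of all genes held them. The CCAAT box (CCAAT), which binds NF-Y, was in 8 of the 12 windows, from 7 of the 9 genes, against 37.4% of all windows. The GC box (GGGCGG), which binds SP1, was in 5 of the 12 windows, from 4 of the 9 genes, against 35.7%. The absence of a match says only that these letters are not in these 300 bases. The 150 bases before the start site are shown for 3 genes that fell in both models (*Srebf1*, at the most downstream of its 3 start sites, *Thrsp* and *Acacb*) and for *Fasn*, which did not change by the test, from GRCm38.p6 and 5′ to 3′ on the strand of the gene, with CCAAT and GC boxes of either strand in capitals.
Srebf1, chr11:60210472-60210621, minus strand: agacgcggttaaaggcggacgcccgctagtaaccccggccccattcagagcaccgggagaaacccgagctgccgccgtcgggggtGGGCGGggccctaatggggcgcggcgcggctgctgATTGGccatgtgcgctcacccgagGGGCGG
Thrsp, chr7:97417551-97417700, minus strand: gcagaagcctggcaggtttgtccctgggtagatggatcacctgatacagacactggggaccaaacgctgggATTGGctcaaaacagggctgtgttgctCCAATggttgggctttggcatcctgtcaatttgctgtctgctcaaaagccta
Acacb, chr5:114165368-114165517, plus strand: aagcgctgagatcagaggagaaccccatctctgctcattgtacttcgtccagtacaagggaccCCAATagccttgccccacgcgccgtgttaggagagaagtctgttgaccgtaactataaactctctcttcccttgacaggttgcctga
Fasn, chr11:120824548-120824697, minus strand: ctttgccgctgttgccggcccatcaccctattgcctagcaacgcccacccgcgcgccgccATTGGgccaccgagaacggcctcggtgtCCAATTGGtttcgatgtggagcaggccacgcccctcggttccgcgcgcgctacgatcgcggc
The stretch of *Fasn* holds 3 overlapping or nearby CCAAT boxes and that of *Thrsp* 2, so CCAAT boxes occurred both in a gene that fell in both models and in *Fasn*.

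In YAP1 KO livers, 3 of the 10 genes fell (*Srebf1*, *Acacb*, *Thrsp*), 1 rose (*Scd1*) and 6 did not pass the test. In YKTH livers, 5 fell (*Srebf1*, *Acacb*, *Thrsp*, *Elovl6*, *Me1*), none rose and 5 did not pass. Changed genes were common in both models, with 36.7% of 11704 tested genes called in YAP1 KO livers (18.8% higher and 17.9% lower) and 38.2% of 11741 in YKTH livers (19.2% higher and 19.0% lower). The lipogenesis genes called, 4 of 10 and 5 of 10, are read against that background, and the share in YAP1 KO livers is near it. After scaling, the groups did not overlap for the same 4 genes in YAP1 KO and the same 5 in YKTH livers. Such separation was common too, at 51.2% of all tested genes in the C57BL/6 set (24.9% above and 26.3% below WT) and 52.1% in the mixed set (24.5% above and 27.6% below). The median log2 fold change of the 10 genes was -0.38 in YAP1 KO and -0.75 in YKTH livers beside -0.04 for all tested genes in each. Without scaling the medians were -0.03 and -0.48 beside 0.28 and 0.24, so the median of the 10 was below that of all tested genes either way, although *Scd1* and *Acaca* were above it in YAP1 KO livers. Without LM226, the same count of 5 fell in YKTH livers and the median of the 10 was -0.38. In whole liver, fewer hepatocytes and less RNA of a gene per hepatocyte cannot be told apart. The summed TPM of 8 hepatocyte markers was 102000 to 113800 in WT (C57BL/6) and 79440 to 87970 in YAP1 KO livers, and 92460 to 116200 in WT (mixed) and 76010 to 92580 in YKTH livers, with 4 and 3 of the 8 lower and none higher by the test. Most of each sum was *Alb*, with means of 78600 against 60140 TPM and 75450 against 61510 TPM. Mean deposited TPM of *Apoa1*, *Hnf4a*, *Cps1* and *Fgb* was higher in the knockout group of both sets, before the library factors were applied. After scaling, the log2 fold changes in YAP1 KO and YKTH livers were -0.04 and 0.21 for *Apoa1* and 0.03 and -0.12 for *Cps1*. Macrophage markers were higher for 7 of 8 genes in both models, at 264 to 329 against 806 to 1214 summed TPM in the C57BL/6 set and 236 to 515 against 1060 to 1195 in the mixed set. Stellate cell markers summed to 134 to 158 against 339 to 441 TPM and 119 to 150.5 against 296 to 378 TPM. Of these 8, 4 were higher in each model and 1 was lower in YAP1 KO livers. Cholangiocyte markers, mostly *Spp1*, summed to 37.0 to 64.8 against 336 to 759 TPM and 50.7 to 69.5 against 110 to 231 TPM. Of 5 tested cholangiocyte markers, only *Sox9* and *Spp1* were higher in each model, and 1 was lower in YKTH livers. The sum thus does not stand for the whole list. Of 8 endothelial markers, 1 and 2 were higher and 3 and 3 lower. The part of cell makeup in the values below was not tested.

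**Figure D2:**
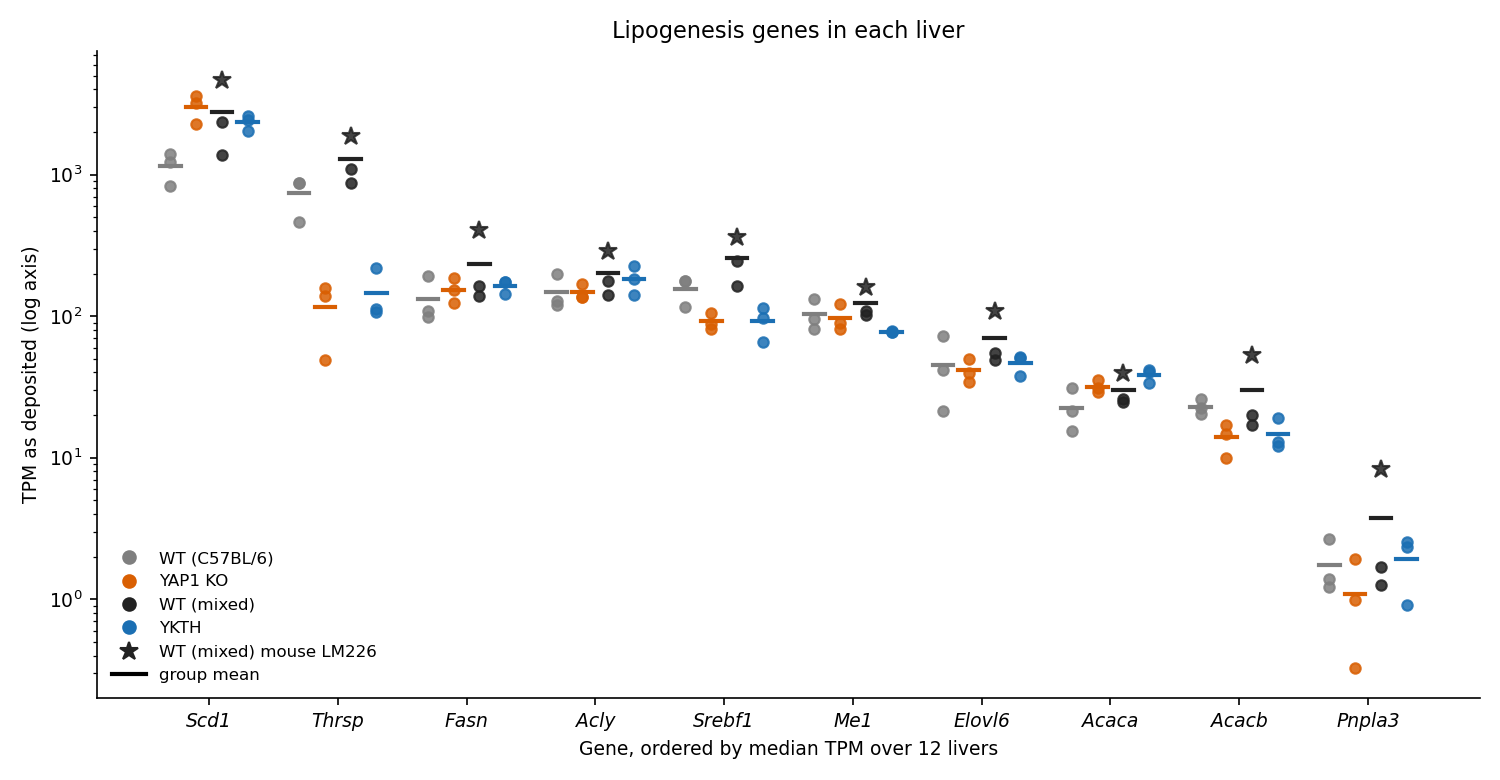
TPM as deposited (log axis) of each of the 10 genes in each liver, with points for mice, bars for group means and a star for mouse LM226. *Thrsp* in all 6 knockout livers lies below all 6 WT livers, while *Scd1* in YAP1 KO livers lies above WT (C57BL/6) livers and in YKTH livers within the range of WT (mixed) livers.

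*Srebf1*, the gene of the transcription factor itself, was lower in both models. It was at 117, 176 and 176 TPM in WT (C57BL/6) livers, beside 106, 81.5 and 88.2 TPM in YAP1 KO livers. Every YAP1 KO liver was below every littermate, and the WT liver nearest to them was LM75. This was a log2 fold change of -1.10 (SE 0.15, limma adjusted p = 0.00111). WT (mixed) livers had *Srebf1* at 361, 163 and 243 TPM and YKTH livers at 65.5, 96.6 and 115 TPM. Here too the groups did not overlap, and LM226 was the highest WT liver. *Srebf1* fell by 1.74 on the log2 scale (SE 0.30, limma adjusted p = 0.00266), and without LM226 by 1.5 (SE 0.30, limma adjusted p = 0.0101). The call held in all 14 and all 13 alternatives run, with values from -1.27 to -0.75 in YAP1 KO and from -2.02 to -1.42 in YKTH livers.

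*Thrsp* changed most of the 10 genes. It encodes THRSP (Spot 14), a small nuclear and cytosolic protein that thyroid hormone and carbohydrate feeding induce. It was at 465, 876 and 874 TPM in WT (C57BL/6) livers, beside 48.98, 158 and 139 TPM in YAP1 KO livers. The highest knockout liver was thus well below the lowest WT liver, and the mean was 0.156 of that in WT. *Thrsp* fell by 3.13 on the log2 scale (SE 0.46, limma adjusted p = 0.00149). *Thrsp* was at 1878, 869 and 1105 TPM in WT (mixed) livers, and YKTH livers had 218, 106 and 113 TPM. Again no knockout liver reached a WT liver, and the ratio of means was 0.114. The log2 fold change was -3.45 (SE 0.30, limma adjusted p = 0.000103), and -3.18 (SE 0.29, limma adjusted p = 0.000552) without LM226. The related *Mid1ip1* (MIG12), whose protein forms complexes with THRSP and activates acetyl-CoA carboxylase, fell as well. It was at 69.9, 89.2 and 104 TPM in WT (C57BL/6) and 43.3, 42.5 and 49 TPM in YAP1 KO livers. The log2 fold change of *Mid1ip1* was -1.29 (SE 0.15, limma adjusted p = 0.00047) in YAP1 KO and -1.50 (SE 0.20, limma adjusted p = 0.000853) in YKTH livers.

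The enzymes that supply acetyl-CoA and NADPH differed in outcome. *Acly* was at 120, 128 and 198 TPM in WT (C57BL/6) livers, beside 138, 169 and 136 TPM in YAP1 KO livers. The knockout values as deposited lay within the WT range, while after scaling LM74 was the lowest of the 12 livers. The log2 fold change was -0.34 (95% interval -0.81 to 0.13, limma adjusted p = 0.225). *Acly* was at 288, 178 and 141 TPM in WT (mixed) and 140, 225 and 182 TPM in YKTH livers, which overlapped, with a log2 fold change of -0.43 (95% interval -1.02 to 0.16, limma adjusted p = 0.221), and -0.19 without LM226. *Me1* was at 94.8, 81.8 and 132 TPM in WT (C57BL/6) and 81.5, 122 and 89.5 TPM in YAP1 KO livers, overlapping groups with a log2 fold change of -0.42 (95% interval -0.95 to 0.10, limma adjusted p = 0.183). In the mixed set *Me1* was at 159, 103 and 109 TPM in WT and at 77.1, 77.9 and 78.1 TPM in YKTH livers. The YKTH values were almost equal to each other and all lay below the WT values. *Me1* fell by 0.96 on the log2 scale (SE 0.14, limma adjusted p = 0.00148), and by 0.8 (SE 0.11, limma adjusted p = 0.00241) without LM226.

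The 2 acetyl-CoA carboxylases did not move together. ACC1, the product of *Acaca*, is cytosolic and feeds fatty acid synthesis, whereas ACC2, the product of *Acacb*, sits at the outer mitochondrial membrane, where its malonyl-CoA restrains fatty acid entry through CPT1. *Acaca* was at 15.5, 21.3 and 30.9 TPM in WT (C57BL/6) and 35.3, 31.1 and 28.9 TPM in YAP1 KO livers. The groups overlapped, and the log2 fold change was 0.18 (95% interval -0.30 to 0.66, limma adjusted p = 0.541). *Acacb* was at 22.4, 20.5 and 26.0 TPM in WT (C57BL/6) and 10.02, 17.0 and 14.8 TPM in YAP1 KO livers, with no overlap and a log2 fold change of -1.04 (SE 0.22, limma adjusted p = 0.00729). In the mixed set *Acaca* was at 39.6, 25.8 and 24.9 TPM in WT and 41.6, 40.6 and 33.8 TPM in YKTH livers. Its log2 fold change was 0.06 (95% interval -0.29 to 0.41, limma adjusted p = 0.774), and 0.23 without LM226. *Acacb* was at 53.3, 17.0 and 20.1 TPM in WT (mixed) and 13.0, 19.2 and 12.04 TPM in YKTH livers, which overlapped as deposited and did not after scaling.

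The fall of *Acacb* in YKTH livers depended on single mice and on the processing. Its log2 fold change was -1.13 (SE 0.36, limma adjusted p = 0.0388), and -0.68 (SE 0.21, limma adjusted p = 0.0481) without LM226. It no longer passed the test without WT mouse LM230 (-1.29, limma adjusted p = 0.0504), without YKTH mouse LM225 (-1.03, limma adjusted p = 0.0871) or without YKTH mouse LM251 (-1.04, limma adjusted p = 0.115). It was also lost with no filter, no scaling, quantile normalization or robust shrinkage, at limma adjusted p from 0.053 to 0.11. In YAP1 KO livers the fall of *Acacb* passed in all 14 alternatives.

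*Fasn*, the enzyme that carries out the synthesis, did not pass the test in either model. It was at 99.4, 108 and 192 TPM in WT (C57BL/6) livers, beside 123, 187 and 152 TPM in YAP1 KO livers. All 3 knockout values as deposited lay within the range of the littermates, while after scaling LM74 was the lowest of the 12 livers. The log2 fold change was -0.10 (95% interval -0.73 to 0.52, limma adjusted p = 0.796). *Fasn* was at 405, 139 and 163 TPM in WT (mixed) livers and at 173, 175 and 143 TPM in YKTH livers. By deposited TPM, LM226 was far above all the others, and the other 2 WT livers lay below 2 of the 3 YKTH livers. The library factors were 0.858 to 0.947 in WT (mixed) and 1.07 to 1.18 in YKTH livers. After scaling, LM230 thus lay above all 3 YKTH livers. The log2 fold change was -0.68 (95% interval -1.42 to 0.06, limma adjusted p = 0.133), and -0.25 (SE 0.13, limma adjusted p = 0.197) without LM226. Without WT mouse LM227 it was -0.96 and passed (limma adjusted p = 0.04997).

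*Elovl6* was at 21.5, 41.7 and 71.9 TPM in WT (C57BL/6) and 39.6, 50.1 and 34.5 TPM in YAP1 KO livers. The knockout livers lay inside the wide WT range, with a log2 fold change of -0.32 (95% interval -1.17 to 0.52, limma adjusted p = 0.525). Levels of *Elovl6* were 108, 54.5 and 48.7 TPM in WT (mixed) and 51.2, 50.9 and 37.7 TPM in YKTH livers, overlapping as deposited and separate after scaling. Its log2 fold change was -0.82 (SE 0.25, limma adjusted p = 0.0313), and -0.51 (SE 0.14, limma adjusted p = 0.0336) without LM226. The call was lost without YKTH mouse LM250 (-0.91, limma adjusted p = 0.0529) or YKTH mouse LM251 (-0.71, limma adjusted p = 0.107). With no filter, no scaling, quantile normalization or all 12 libraries in 1 fit *Elovl6* did not pass either, at limma adjusted p from 0.0611 to 0.172.

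*Scd1*, the stearoyl-CoA desaturase of adult hepatocytes, was the most abundant of the 10 transcripts in every group and the member that rose. It was at 1408, 825 and 1229 TPM in WT (C57BL/6) livers, beside 3572, 3229 and 2280 TPM in YAP1 KO livers. All 3 knockout livers were above all 3 littermates, with a ratio of mean TPM of 2.62. *Scd1* rose by 1.04 on the log2 scale (SE 0.24, limma adjusted p = 0.0108), and it passed in all 14 alternatives, with values from 0.79 to 1.5. *Scd1* was at 4651, 1380 and 2341 TPM in WT (mixed) livers and at 2432, 2596 and 2046 TPM in YKTH livers. The WT livers spanned a range that held all the YKTH livers, and the log2 fold change was -0.40 (95% interval -1.21 to 0.42, limma adjusted p = 0.416). Without LM226 it was 0.02 (SE 0.24, limma adjusted p = 0.958).

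*Pnpla3*, which encodes a lipid droplet protein also called adiponutrin, had the lowest levels, so single livers near 1 TPM set its values. It was at 1.39, 1.21 and 2.67 TPM in WT (C57BL/6) livers, beside 1.94, 0.980 and 0.324 TPM in YAP1 KO livers. *Pnpla3* was at 8.37, 1.69 and 1.26 TPM in WT (mixed) and 0.903, 2.54 and 2.33 TPM in YKTH livers. Both pairs of groups overlapped. The log2 fold change was -0.65 in each model (95% interval -1.33 to 0.04, limma adjusted p = 0.124, in YAP1 KO, and -1.79 to 0.50, limma adjusted p = 0.338, in YKTH livers), and in YKTH livers -0.02 without LM226.

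**Figure D3:**
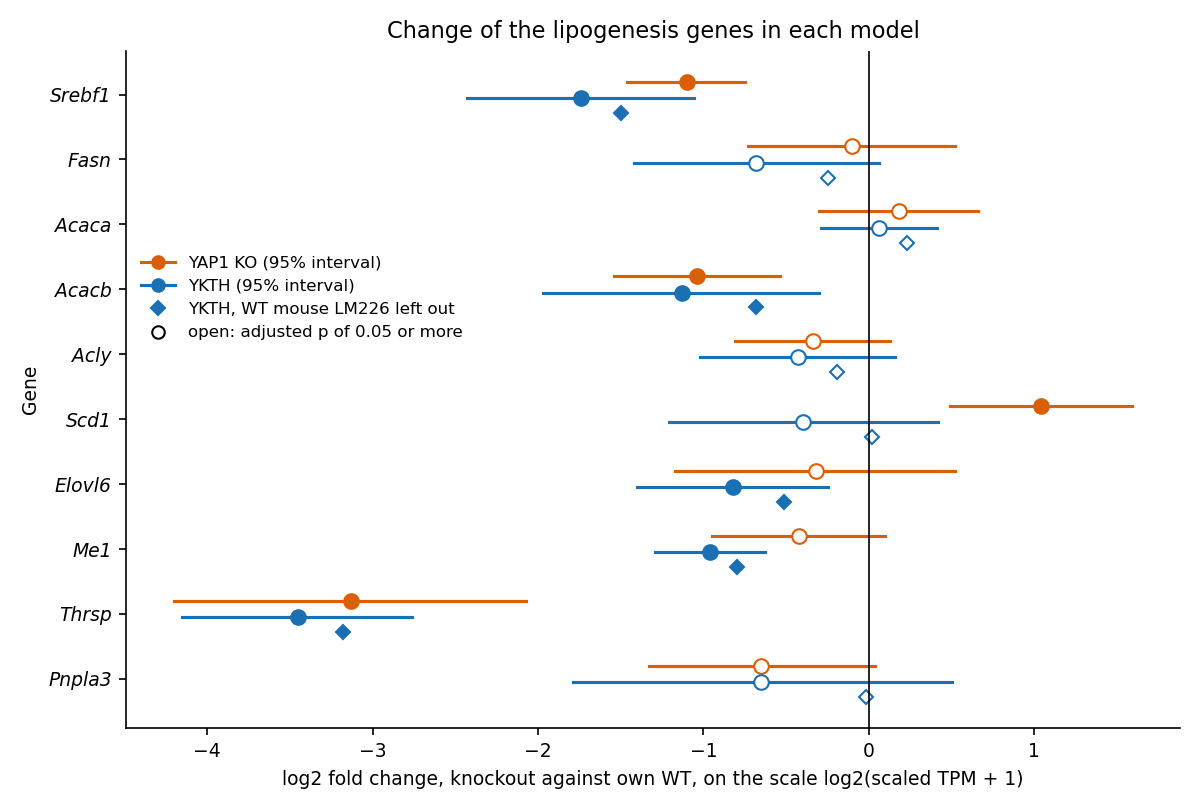
Log2 fold change of the 10 genes on the log2(scaled TPM + 1) scale in YAP1 KO and in YKTH livers, each against its own WT littermates, with 95% intervals, filled where the limma adjusted p was under 0.05. Diamonds give the YKTH change with WT mouse LM226 left out, which is nearer to 0 than the change with all mice for 9 of the genes and farther for *Acaca* (0.23 against 0.06).

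The difference between the models (the change in YAP1 KO minus that in YKTH) was tested over all 12 livers, and none of the 10 genes passed, with 0.0576% of 12159 genes called (0.0247% with a higher and 0.0329% with a lower change in YAP1 KO). By unadjusted p, 1 of the 10 was under 0.05, as were 4.56% of all tested genes. This was *Scd1*, with a difference of 1.43 (SE 0.48, limma adjusted p = 0.908), and 1.01 (SE 0.38, limma adjusted p = 0.9999) without LM226. For *Srebf1* the difference was 0.63 (95% interval -0.19 to 1.45), for *Thrsp* 0.31 (95% interval -1.06 to 1.68), and for *Me1* 0.52 (95% interval -0.12 to 1.17). Without LM226 these were 0.39, 0.04 and 0.37. The intervals leave room for differences of either sign in these 3 genes. None of the 10 genes differed between WT (mixed) and WT (C57BL/6) livers by limma with adjustment, where 0.216% of 11126 genes were called (0.171% higher and 0.0449% lower in WT (mixed)). All 10 overlapped between these groups after scaling, as did most genes, since 11.1% did not overlap (5.6% above and 5.47% below). There 3 of the 10 were under 0.05 unadjusted, beside 5.83% of all tested genes: *Scd1* at 1.07, *Thrsp* at 0.72 and *Srebf1* at 0.60, all higher in WT (mixed). Without LM226 those values were 0.66, 0.45 and 0.36. The median over the 10 genes was 0.53 with LM226 and 0.21 without it.

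By median TPM over the 12 livers, the order was *Scd1* (2311), *Thrsp* (342), *Fasn* (158), *Acly* (155), *Srebf1* (116), *Me1* (92.2), *Elovl6* (49.4), *Acaca* (31.0), *Acacb* (18.1) and *Pnpla3* (1.54). *Me1* exceeded *Elovl6*, *Elovl6* exceeded *Acaca* and *Acacb* exceeded *Pnpla3* within each of the 12 livers. *Fasn* exceeded *Acly* in 5 of 12, so that pair is not separated by the spread. *Thrsp* exceeded *Fasn* in 7 of 12, among them all 6 WT livers. *Thrsp* was the second most abundant of the 10 by group mean in both WT groups and the fourth in both knockout groups. *Srebf1* was by the same measure the third in both WT groups, the sixth in YAP1 KO and the fifth in YKTH livers. *Acacb* and *Acaca* had nearly equal means in WT livers of both backgrounds (22.9 and 22.6 TPM, and 30.1 and 30.1 TPM). In WT (mixed) livers this rested on LM226, with *Acacb* at 53.3 and *Acaca* at 39.6 TPM. The pair was at 17.0 and 25.8 TPM in LM227 and at 20.1 and 24.9 TPM in LM230. *Acaca* exceeded *Acacb* in 10 of 12 livers, so *Acacb* was the lower of the pair in all 6 knockout livers and in most WT livers.

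Ratios of 2 genes in the same liver are untouched by the library factor. The pairs were chosen after the values had been seen and are given as a description. *Acaca* to *Acacb* was 0.695 to 1.19 in WT (C57BL/6), 1.83 to 3.53 in YAP1 KO, 0.742 to 1.52 in WT (mixed) and 2.12 to 3.20 in YKTH livers. The ratio was above that of every littermate in all 6 knockout livers. *Thrsp* to *Fasn* was 4.55 to 8.12 in WT (C57BL/6) and 0.397 to 0.910 in YAP1 KO livers, and 4.64 to 6.79 in WT (mixed) and 0.607 to 1.26 in YKTH livers. *Srebf1* to *Srebf2*, the gene of the cholesterol-directed relative of SREBP1, was 3.48 to 6.97 against 1.71 to 2.31 and 6.56 to 11.5 against 1.30 to 2.66. In both ratios the knockout livers lay below every WT liver of their set. *Scd1* to *Fasn* was 6.40 to 14.2 in WT (C57BL/6) and 15.0 to 28.9 in YAP1 KO livers, while in the mixed set the ranges overlapped at 9.93 to 14.4 and 14.0 to 14.8. In LM226 *Scd1* to *Fasn* was 11.5, between 9.93 and 14.4 in the other WT (mixed) livers, and *Thrsp* to *Fasn* was 4.64 beside 6.25 and 6.79. *Scd1* made up 36.2 to 59.6% of the summed TPM of the 10 genes in WT (C57BL/6) livers and 76.9 to 85.9% in YAP1 KO livers, and 47.1 to 58.5% in WT (mixed) and 74.1 to 76.6% in YKTH livers. The summed TPM of the other 9 genes was 956 to 1704 against 584 to 816, and 1550 to 3300 against 717 to 794. *Thrsp* alone was at 465 to 876 against 48.98 to 158 TPM, and at 869 to 1878 against 106 to 218 TPM. These sums therefore largely follow *Thrsp* and do not show a joint fall of the other genes.

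**Figure D4:**
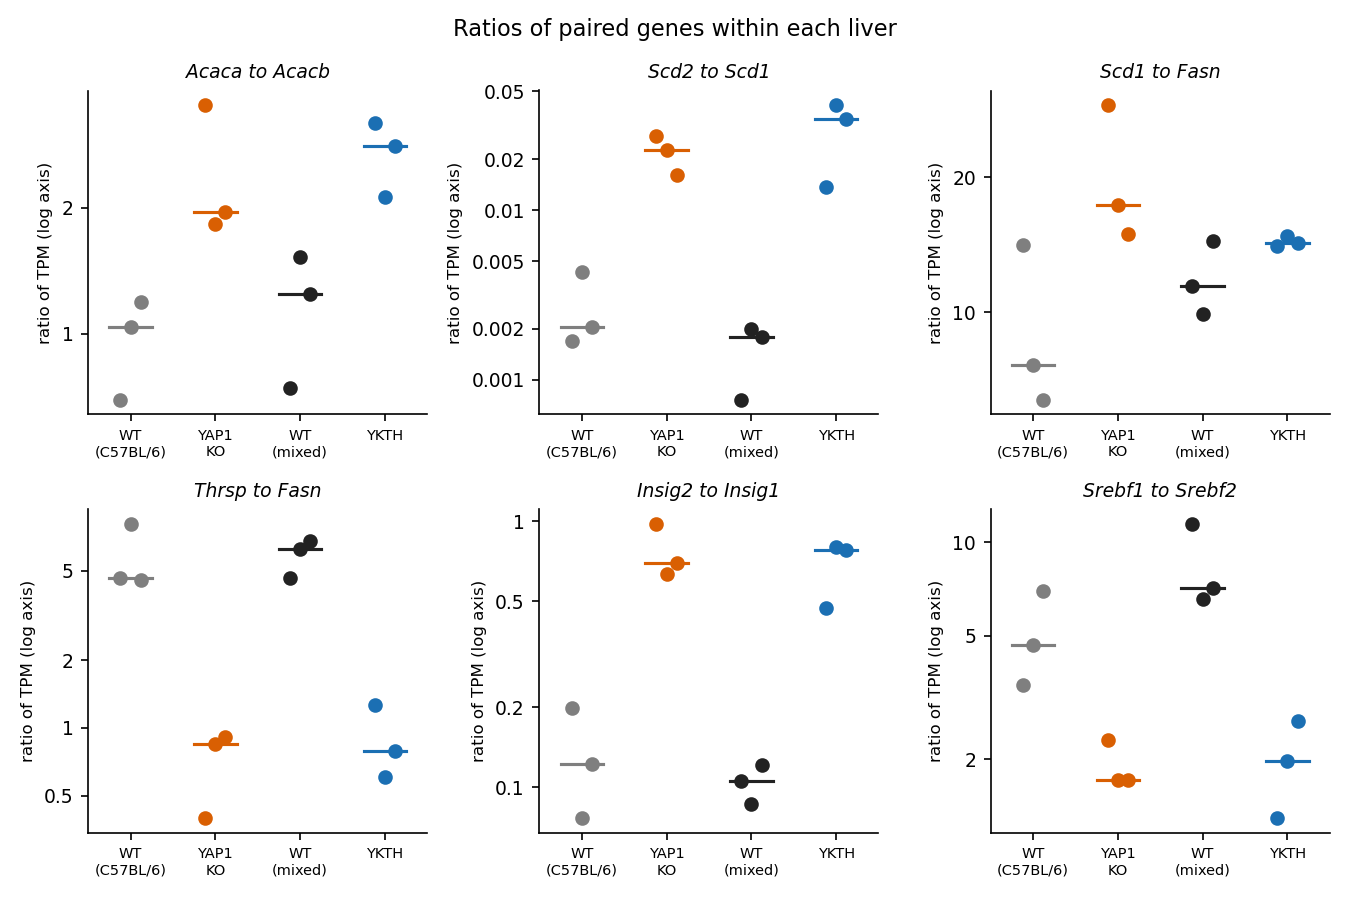
Ratio of the TPM of paired genes within each liver (log axis), with points for mice and bars for group medians. In 5 of the 6 panels the knockout livers of both models are separate from their own littermates, and *Scd1* to *Fasn* is separate in the C57BL/6 set only.

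The genes around the pathway were read from 7 lists that hold none of the 10, and the counts of each list are set beside 36.7% and 38.2% of all tested genes. Of 20 regulators of SREBP1 and ChREBP, 1 rose and 7 fell in YAP1 KO and 1 rose and 10 fell in YKTH livers. Without scaling, 4 rose and 2 fell in YAP1 KO and 5 rose and 3 fell in YKTH livers, so the balance of the regulators turns with the scaling. Without LM226, 1 rose and 8 fell in YKTH livers. The median of the regulators was -0.30 in YAP1 KO and -0.38 in YKTH livers, and without scaling 0.05 and -0.06 beside 0.28 and 0.24 for all genes. *Insig2*, 1 of a pair of proteins that hold the SREBP escort SCAP in the endoplasmic reticulum, was the gene that rose. It was at 65.5, 32.3 and 38.6 TPM in WT (C57BL/6) and 259, 200 and 186 TPM in YAP1 KO livers, and at 43.9, 41.1 and 50.4 TPM in WT (mixed) and 125, 259 and 254 TPM in YKTH livers. The groups were far apart in both sets, with log2 fold changes of 1.91 (SE 0.25, limma adjusted p = 0.000903) and 1.82 (SE 0.29, limma adjusted p = 0.00194). *Insig1*, its partner and a target of SREBPs, fell by 0.69 and 0.84 on the log2 scale (limma adjusted p = 0.00718 and 0.00301), so *Insig2* to *Insig1* was 0.0766 to 0.198 in WT (C57BL/6) and 0.636 to 0.980 in YAP1 KO livers. Without scaling the fall of *Insig1* in YAP1 KO livers did not pass (-0.33, limma adjusted p = 0.071).

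*Mlxipl*, the gene of ChREBP, was at 142, 108 and 151 TPM in WT (C57BL/6) and 75.0, 82.7 and 73.8 TPM in YAP1 KO livers, below every littermate, with a log2 fold change of -1.13 (SE 0.16, limma adjusted p = 0.00116). *Mlxipl* was at 176, 124 and 78.9 TPM in WT (mixed) and 87.4, 87.5 and 67.0 TPM in YKTH livers. These overlapped as deposited. The log2 fold change there was -0.90 (SE 0.23, limma adjusted p = 0.0172). The call was lost without WT mouse LM227 (-0.86, limma adjusted p = 0.051) or YKTH mouse LM251 (-0.80, limma adjusted p = 0.0667). It was also lost without scaling (-0.58, limma adjusted p = 0.102) and with quantile normalization (-0.68, limma adjusted p = 0.0569). *Nr1h3*, which encodes the oxysterol receptor LXR alpha, fell by 0.49 and 0.42 on the log2 scale (limma adjusted p = 0.00415 and 0.00653). Neither fall passed without scaling, and the fall in YKTH livers did not pass with quantile normalization (limma adjusted p = 0.0863). *Nr1h4*, the gene of the bile acid receptor FXR, fell by 1.09 and 1.11 (limma adjusted p = 0.000487 and 0.00102). *Nr0b2*, a corepressor that FXR induces, was at -0.53 in YAP1 KO livers (limma adjusted p = 0.0684) and fell by 0.88 in YKTH livers (limma adjusted p = 0.00116). In YAP1 KO livers *Nr0b2* passed when WT mouse LM75 (-0.68, limma adjusted p = 0.0375) or YAP1 KO mouse LM191 (-0.70, limma adjusted p = 0.0377) was left out. *Scap* was at -0.40 in YAP1 KO livers (limma adjusted p = 0.138) and fell by 0.42 in YKTH livers (limma adjusted p = 0.00901). The fall of *Scap* was lost without scaling, with quantile normalization (limma adjusted p = 0.0744) and with all 12 libraries in 1 fit (limma adjusted p = 0.0522).

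Of 15 tested genes of acetyl-CoA supply, elongation and desaturation, 2 rose and 8 fell in YAP1 KO, and 2 rose and 6 fell in YKTH livers, with medians of -0.35 and -0.32. Without scaling, 4 rose and 4 fell in YAP1 KO and 2 rose and 4 fell in YKTH livers, with medians of 0.01 and 0.00. *Scd2*, the desaturase isoform of brain and of the fetal liver, rose from 2.40, 3.57 and 2.53 TPM to 98.1, 72.5 and 36.7 TPM in YAP1 KO livers, a log2 fold change of 3.79 (SE 0.30, limma adjusted p = 6.5e-05). *Scd2* was at 3.57, 2.76 and 4.22 TPM in WT (mixed) and 33.1, 108 and 70.0 TPM in YKTH livers, a log2 fold change of 3.56 (SE 0.39, limma adjusted p = 0.000306). Even so, *Scd2* stayed far below *Scd1*, at 0.0136 to 0.0415 of its TPM in the 6 knockout livers. Transcripts of *Scd1* and *Scd2* matched at 86.8% over 26.1% of the length of *Scd1*, and how reads that fit both were shared is not given in the sources used here. *Fads2*, the delta-6 desaturase of polyunsaturated fatty acids and an SREBP1 target, fell by 1.27 and 1.60 (limma adjusted p = 0.0021 and 5.34e-05). *Elovl3*, an elongase of very long chains, was at 1.67 to 5.2 TPM in WT (C57BL/6) and at most 0.745 TPM in YAP1 KO livers, and was listed at 0 in 2 of the 3 YKTH livers.

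Of 5 genes of NADPH supply, 2 rose and 1 fell in each model, and without scaling 4 and 3 rose and none fell. Genes of the oxidative pentose phosphate pathway, the other large source of NADPH, rose in both models. *Pgd* was at 34.4, 36.5 and 40.6 TPM in WT (C57BL/6) and 140, 144 and 133 TPM in YAP1 KO livers, a log2 fold change of 1.52 (SE 0.10, limma adjusted p = 3.72e-05). In YKTH livers *Pgd* rose by 1.31 (SE 0.18, limma adjusted p = 0.00102). *G6pdx*, the first enzyme of that pathway, rose by 1.03 and 1.15 (limma adjusted p = 0.00159 and 0.00327). *Idh1*, a cytosolic NADP-dependent dehydrogenase, fell by 0.40 and 0.45 (limma adjusted p = 0.018 and 0.00864), and neither fall passed without scaling or with quantile normalization. In YAP1 KO livers the fall of *Idh1* was also lost without WT mouse LM193 (limma adjusted p = 0.0555) or YAP1 KO mouse LM191 (limma adjusted p = 0.0739). *Taldo1* and *Tkt*, of the other branch of the pathway, were at 0.13 and 0.29 in YAP1 KO and at 0.06 and -0.11 in YKTH livers and did not pass.

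Of 13 genes of glucose and fructose handling, none rose and 3 fell in YAP1 KO and 4 fell in YKTH livers. The median of this list was -0.08 and -0.28, and without scaling 0.27 and 0.04, with 2 genes higher and 1 lower in YAP1 KO and 2 higher and 3 lower in YKTH livers. *Pklr*, liver pyruvate kinase and a classic ChREBP target, was at 119, 206 and 353 TPM in WT (C57BL/6) and 93.5, 119 and 105 TPM in YAP1 KO livers. These nearly met at 119 TPM, and the log2 fold change was -1.31 (SE 0.34, limma adjusted p = 0.0171), lost without YAP1 KO mouse LM74 (-1.17, limma adjusted p = 0.0631). In YKTH livers *Pklr* fell by 1.21 (limma adjusted p = 0.0032). *Khk*, which phosphorylates fructose, fell by 0.62 and 0.79 (limma adjusted p = 0.0184 and 0.00114). In YAP1 KO livers the fall of *Khk* was lost without WT mouse LM193 (limma adjusted p = 0.0656) or without YAP1 KO mouse LM191 (limma adjusted p = 0.0512). It was also lost without scaling (limma adjusted p = 0.165) and with quantile normalization (limma adjusted p = 0.17). *Pfkfb1*, the liver enzyme that sets fructose 2,6-bisphosphate, fell by 0.76 and 0.78 (limma adjusted p = 0.00896 and 0.00282), the former not without scaling.

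Of 8 tested genes of triglyceride assembly, 1 rose and 2 fell in YAP1 KO and 4 fell in YKTH livers, with medians of -0.10 and -0.49. Without scaling the medians were 0.24 and -0.18, with 2 higher and 1 lower in YAP1 KO and 1 higher and 2 lower in YKTH livers. *Dgat2*, which adds the last fatty acid and handles newly made ones, was at 465, 554 and 498 TPM in WT (C57BL/6) and 187, 223 and 279 TPM in YAP1 KO livers. In the mixed set *Dgat2* was at 699, 658 and 497 TPM in WT and 346, 208 and 229 TPM in YKTH livers. The groups were separate in both sets, with log2 fold changes of -1.51 (SE 0.17, limma adjusted p = 0.000448) and -1.58 (SE 0.18, limma adjusted p = 0.000381). *Gpam*, the mitochondrial enzyme of the first acylation, fell by 0.46 and 0.83 (limma adjusted p = 0.0127 and 0.00403), the former lost without YAP1 KO mouse LM191 (limma adjusted p = 0.055) and without scaling (limma adjusted p = 0.436).

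Lipid droplet genes moved both ways, with 5 of 16 higher and 5 lower in YAP1 KO and 7 of 17 higher and 6 lower in YKTH livers. The medians were 0.54 and 0.27. Without scaling 9 were higher and 2 lower in YAP1 KO and 9 higher and 4 lower in YKTH livers, so the even balance depends on the scaling. *G0s2*, an inhibitor of the lipase ATGL, was at 61.4, 159 and 221 TPM in WT (C57BL/6) and 45.8, 32.9 and 47.1 TPM in YAP1 KO livers, and fell by 1.97 and 2.45 (limma adjusted p = 0.00604 and 0.000131). *Hilpda*, another ATGL inhibitor, rose by 2.08 and 0.90 (limma adjusted p = 0.021 and 0.00206). YAP1 KO mouse LM189 had 39.2 TPM of *Hilpda* beside 7.95 and 9.85 TPM in the others, and the rise in YAP1 KO livers did not pass without WT mouse LM192 (1.77, limma adjusted p = 0.0693) or with robust shrinkage (limma adjusted p = 0.0565). The rise of *Hilpda* in YKTH livers did not pass with all 12 libraries in 1 fit (limma adjusted p = 0.142). *Cd36*, a fatty acid uptake protein that macrophages and endothelium also express, rose by 1.63 in YAP1 KO livers (limma adjusted p = 0.0007) and by 0.59 in YKTH livers (limma adjusted p = 0.04). In YKTH livers *Cd36* no longer passed without WT mouse LM226 (limma adjusted p = 0.119) or LM230 (limma adjusted p = 0.117), or without any 1 of the 3 YKTH mice (LM225, LM250 and LM251, limma adjusted p = 0.102, 0.0519 and 0.0728). *Fitm1*, which helps droplets form, fell by 1.03 and 1.40 (limma adjusted p = 0.0168 and 0.0173), and was lost without WT mice LM192 or LM193 in the C57BL/6 set and without LM227, LM230, LM250 or LM251 in the mixed set, at adjusted p from 0.0563 to 0.0622 by limma.

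Of 10 genes of the fasting response, 2 rose and 6 fell in each model, with a median of -1 in both, and without scaling 2 rose in each and 5 and 4 fell. *Igfbp1* was at 95.8, 31.4 and 79.7 TPM in WT (C57BL/6) and 1021, 2476 and 873 TPM in YAP1 KO livers, and at 16.7, 153 and 46.0 TPM in WT (mixed) and 674, 686 and 773 TPM in YKTH livers. Every knockout liver was above every WT liver, with log2 fold changes of 4.01 (SE 0.51, limma adjusted p = 0.000736) and 3.5 (SE 0.66, limma adjusted p = 0.0042). *Pdk4*, the kinase that shuts off pyruvate dehydrogenase in fasting, rose by 2.66 and 1.87 (limma adjusted p = 0.000278 and 0.000604). Among the 6 that fell were *Acot1*, a thioesterase, by 2.81 and 2.42 (limma adjusted p = 0.00275 and 0.000571), and *Cyp4a10*, an omega-hydroxylase, by 2.72 and 1.95 (limma adjusted p = 6.5e-05 and 0.00107). *Pck1* and *Ppargc1a*, also induced by fasting, did not pass in either model.

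**Figure D5:**
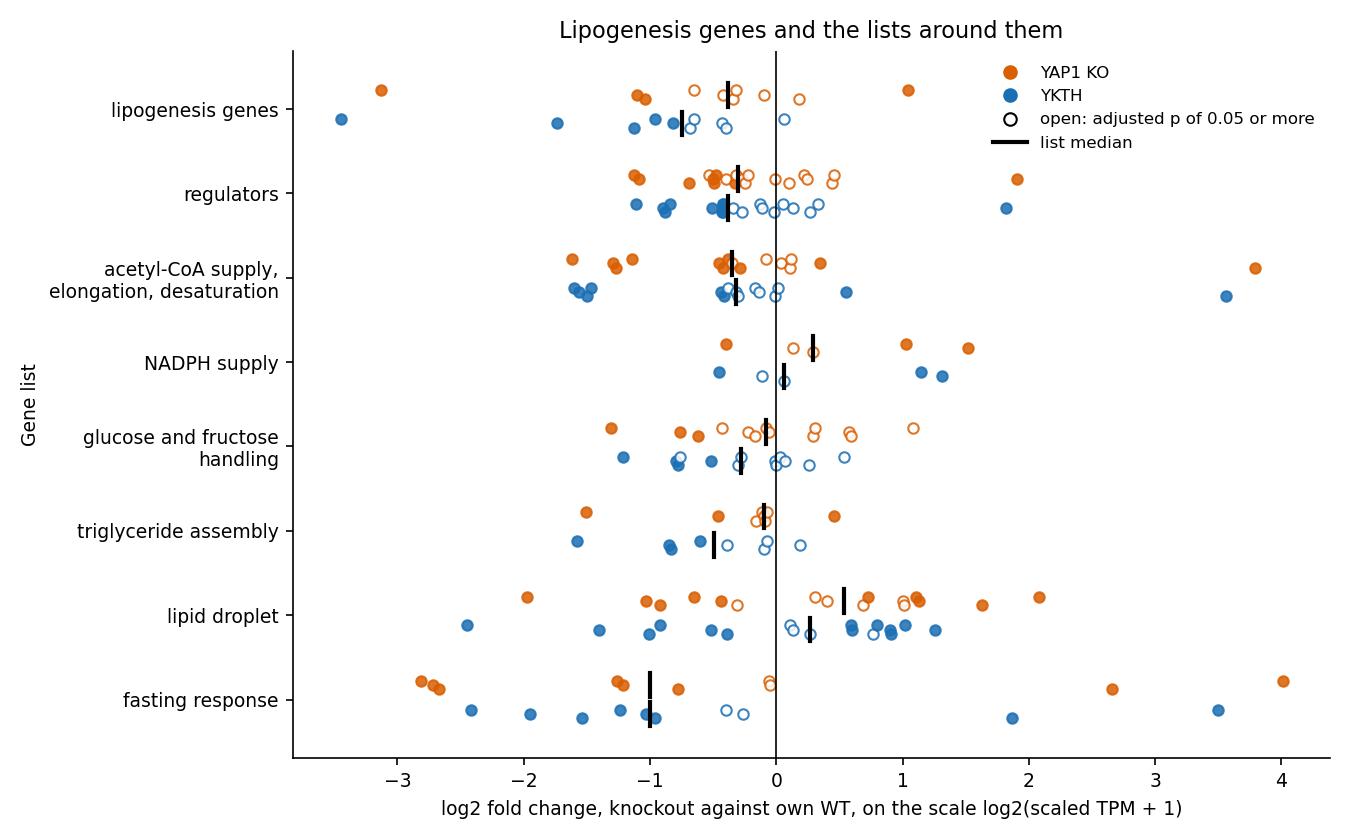
Log2 fold change (horizontal axis, log2(scaled TPM + 1) scale) of every tested gene of the 10 lipogenesis genes and of 7 surrounding lists, in YAP1 KO and YKTH livers against their own littermates, filled where the limma adjusted p was under 0.05, with bars for list medians. Most lists hold genes on both sides of 0, and *Scd2* is the right-most point of its list in both models.

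Adipose tissue, which expresses the same lipogenic genes, was checked through 8 markers. *Lep* was listed at 0 in 11 of the 12 livers, *Plin1* reached at most 0.114 TPM and *Adipoq* at most 0.866 TPM, so these defining markers were at or near 0, as were *Retn* and *Adig*, at most 0.672 and 0.537 TPM. *Cfd* reached 7.48 TPM in LM192 and 3.29 TPM in LM189. *Adrb3* reached 5.21 TPM, in LM75, and fell in both models by 1.73 and 1.15 on the log2 scale (limma adjusted p = 0.00118 and 0.00601). The part of adipose RNA in the results was not tested. The summed TPM of the 8 markers was 12.6 to 34.4 in WT (C57BL/6) and 27.8 to 33.4 in YAP1 KO livers, and 10.6 to 18.6 in WT (mixed) and 29.1 to 44.1 in YKTH livers, most of it *Fabp4*, which macrophages and endothelium also express. Pancreatic acinar transcripts were present in LM192, LM189 and LM191, where *Ctrb1* was at 21.3, 35.8 and 8.61 TPM, and the summed acinar markers reached 80.7 TPM in WT (C57BL/6) and 110 TPM in YAP1 KO livers. With LM192, LM189 or LM191 left out in turn, the same number of lipogenesis genes, 4, passed in YAP1 KO livers.

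Among 12149 other genes, those whose log2(scaled TPM + 1) followed *Fasn* most closely over the 12 livers were *Celsr1* (Pearson r = 0.874), *Mtf1* (0.843), *Rbm27* (0.835), *Sfmbt1* (0.823) and *Hnrnpll* (0.821). For *Scd1* they were *Rhbdd1* (0.868), *Cep350* (0.848), *Mapk6* (0.846), *Pom121* (0.826) and *Aldh1a7* (0.821). These values describe 12 livers of 4 groups that share genotype, library factor and, through LM226, a single extreme value, and no lipogenesis gene outside the 10 was among them.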

How the data were processed

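RNA from whole liver of 12 female mice was sequenced as paired-end Illumina reads. CLC Genomics Workbench was used by the authors for alignment to the mouse genome (GRCm38.p6), and they deposited TPM for each of 41743 genes and each mouse (0 TPM columns were left without a sample), and the submitters' processing notes name edgeR, with which the authors compared each model with its littermates. Those fold changes, log2 fold changes and p-values were not used. Each library sums to 1000000 TPM and the files hold no read counts. The study's methods give a common sequencing target, not the depth reached by each library, so the spread between 3 mice is the only error given. TPM was divided by a trimmed mean of log ratios (30% of ratios and 5% of levels trimmed at each end), 1 was added, and limma 3.58.1 (R 4.3.3; lmFit, eBayes with trend) was applied to the log2 values of genes that reached 1 TPM in 3 or more libraries, with Benjamini-Hochberg adjustment at 0.05. Fits used the 6 libraries of a model and its littermates, the 6 WT libraries, or all 12 for the difference between the models. The fits were also run on simulated data in which few genes changed. That run could not test the library factors for data in which many genes changed. Groups followed the labels, each sample is a separate mouse, and the labels pair no mice. Genes named beyond the 10 were regulators listed beforehand and, in each list, up to 4 genes with the largest mean change among those past the threshold in both models. *Lep*, *Plin1*, *Adipoq*, *Retn*, *Adig*, *Cfd*, *Adrb3*, *Fabp4*, *Ctrb1*, *Taldo1*, *Tkt*, *Pck1*, *Ppargc1a*, *Srebf2* and *Rai1*, and the CCAAT and GC boxes, were added after the values were seen. The members and lists were chosen with earlier results of these data known. Alternatives were a pseudocount of 0.1, a filter at 5 TPM or none, quantile normalization or no scaling, robust shrinkage, all 12 libraries in 1 fit, a block of the near-numbered mice LM74 and LM75, and each mouse left out. Copies were sought with blastn 2.17.0, and permutation tests used scipy 1.17.1.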

Additional observations from a re-analysis of the deposited data

How the results depend on the processing

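Of 576 values of the 10 genes under the alternatives, 528 kept direction and side of the threshold, 13 lost a call, 2 gained one and 33 changed sign, all of the 33 without a call under either setting. The 13 are *Acacb* and *Elovl6* in YKTH livers. The 2 gained are *Fasn* in YKTH livers without LM227 and *Pnpla3* in YAP1 KO livers with quantile normalization (limma adjusted p = 0.0422). In YAP1 KO livers and without scaling, *Fasn*, *Elovl6* and *Acly* were at 0.25, 0.02 and 0.02 in place of -0.10, -0.32 and -0.34, and *Fasn* was at 0.14 with quantile normalization. The difference between the models for *Pnpla3* was 0.00 without scaling in place of -0.01. With each mouse left out in turn, values in YAP1 KO livers ran from -0.28 to 0.19 for *Fasn*, -0.03 to 0.42 for *Acaca* and -0.74 to 0.09 for *Elovl6*, and in YKTH livers from -0.02 to 0.23 for *Acaca* and -0.8 to 0.02 for *Scd1*. Between the WT groups they ran from -0.31 to 0.43 for *Acacb* and -0.13 to 0.83 for *Pnpla3*. For the difference between the models they ran from -0.10 to 0.35 for *Acaca*, -0.38 to 0.37 for *Acacb*, -0.16 to 0.3 for *Acly*, -0.03 to 0.89 for *Thrsp* and -0.64 to 0.36 for *Pnpla3*. Of 721 values of the other named genes, 676 kept theirs, 41 lost a call, 4 gained one and none reversed. The count of lipogenesis genes changed in YKTH livers was 5, and 3 with no filter, with no scaling and with quantile normalization, where *Srebf1*, *Me1* and *Thrsp* remained; with each mouse left out in turn it ran from 3 to 6, and was 3 without LM251. In YAP1 KO livers the count was 4 with each mouse left out, and 0 genes passed for the difference between the models and between the WT groups under every alternative run. The counts with no filter differ by construction, since more genes share the adjustment; for the other settings the cause was not tested. The WT mice were littermates, but the labels do not say which mice share a litter, so litter was not modelled. The block of LM74 and LM75 left the calls of the 10 genes in YAP1 KO livers at 4. The read count of each library and the strand setting are not in the sources used here, 3 mice a group leave wide intervals, and genes near 1 TPM such as *Pnpla3* and *Elovl3* are the least certain.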
